A study of Mus musculus with 2 samples.

Results

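The mitochondrial carriers of the SLC25 family were followed in hepatocytes cultured from control and *Drp1*LiKO mice. The members were the transcript probes of the array design named *Slc25a* with a number, together with *Ucp1*, *Ucp2* and *Ucp3*. This gave 48 genes with 104 probes, of 37071 gene names and 56600 probes on the array. *Drp1*LiKO mice carried *Drp1* flox/flox and an *Alb-Cre* Tg/+ transgene, in which the albumin promoter drives Cre in hepatocytes. The control is labeled wild type, and the methods of the study describe control mice as *Drp1* flox/flox littermates without Cre. Both were of C57BL/6 background. The cells of both cultures were grown in the same medium with high glucose, insulin and serum, were harvested 24 h after seeding and received no further agent. The age of these mice and the number of mice behind each culture are not given in the sources used here. There was 1 array per genotype, so no test was made and each difference describes these 2 arrays.

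SLC25 carriers are small proteins of the inner mitochondrial membrane, built from repeats of a similar sequence, that pass metabolites between cytosol and matrix. In the liver they exchange ADP for ATP, bring in phosphate, move aspartate, malate and glutamate for the redox shuttles, bring ornithine to the urea cycle and acylcarnitines to beta oxidation, and supply the matrix with cofactors, nucleotides and iron. DRP1, encoded by *Dnm1l*, is the dynamin-like GTPase that divides mitochondria.

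Signals below are the processed intensity of a probe, corrected for background by the scanner software, in arbitrary units. The log2 ratio is *Drp1*LiKO minus control after each array was centered on its 75th percentile, a signal of 313 on the control array and 356 on the *Drp1*LiKO array, a difference of 0.18 on the log2 scale. A probe whose signal was the same on both arrays therefore has a log2 ratio a little below 0. The number of arrays limits the precision, and the only error that can be measured is technical, the spread of probes printed 10 times on each array, which gave an SD of the log2 ratio from 0.054 for signals over 1024 to 0.36 for the dimmest. A gene is given by its brightest probe, and probes differ in how strongly they bind, so signals are compared between arrays and not between genes. Of the probes, 48.2% were well above background on the control array and 52.1% on the *Drp1*LiKO array. *Dnm1l* had a signal of 2602 on the control array and 1217 on the *Drp1*LiKO array, a log2 ratio of -1.28, and its other probe, near background at 22.8 and 20.9, was at -0.31. Whether these probes lie in the deleted part of the gene was not tested. The 12 hepatocyte markers were all detected on both arrays, and the median of their log2 ratios was 0.10. They went both ways, 7 higher and 5 lower, from -0.78 for *Cyp2e1* to 1.28 for *Tat*. Of 16 macrophage markers, 15 were detected, 12 of them on both arrays, and *Timd4* was not well above background. The 12 on both arrays were all higher in *Drp1*LiKO cells, and the median over the 15 was 2.32. The summed signal of the list was 11406 on the control array and 29471 on the *Drp1*LiKO array. *Clec4f*, *Vsig4* and *Fcgr1* were detected on the *Drp1*LiKO array only, so their direction was largely set by that filter. The 10 proliferation markers were all lower, with a median of -2.12. What these differences contribute to the values of the carriers was not tested. In cultures measured in bulk, fewer cells of a type and less RNA per cell cannot be told apart.

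Of the 48 carriers, 41 had a brightest probe well above background on at least 1 array and 38 on both. The other 7 were not well above background on either array. They were *Ucp1*, the uncoupling protein of brown fat, *Slc25a31*, an ADP/ATP carrier known from testis, *Slc25a2*, an ornithine carrier, *Slc25a41*, an ATP-Mg/phosphate carrier, and *Slc25a35*, *Slc25a53* and *Slc25a54*. *Slc25a18*, *Slc25a21* and *Slc25a29* were well above background on the *Drp1*LiKO array only, near its limit, with signals of 16.3, 21.9 and 23.5. The plot of signals sets both arrays side by side for each detected carrier.

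**Figure D1:**
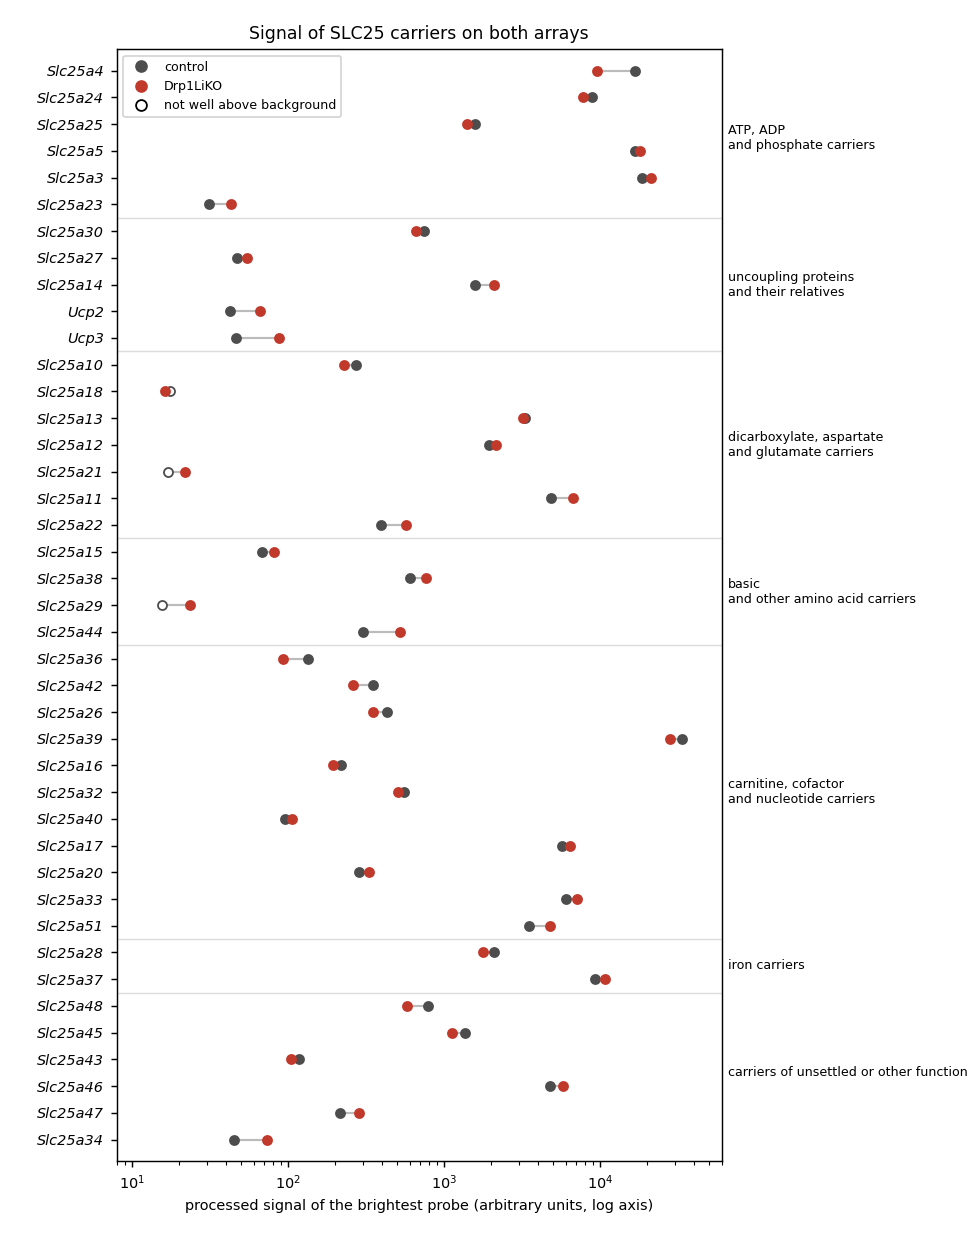
Processed signal of the brightest probe of each of the 41 detected carriers on the control array (gray) and the *Drp1*LiKO array (red), on a log axis, 1 array per genotype, grouped by transported substrate. Open points are not well above background, and only distances within a row can be read, since probes differ in brightness. *Slc25a4*, from 16696 to 9559, shows the widest gap among carriers with signals over 1024.

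The carriers lay close to the center of the array. Their median log2 ratio was -0.02 over the 41 genes and -0.03 over the 38 measured on both arrays, beside -0.05 for all 20165 genes detected and -0.05 for the 17753 on both arrays. On both arrays 18 of 38 carriers were higher, a share of 47.4%, beside 43.6% of all genes. At least 1.5-fold higher were 2 of 41 carriers, *Ucp3* and *Slc25a44*, a share of 4.88% beside a background of 10.3%. At least 1.5-fold lower were 4, *Slc25a4*, *Slc25a36*, *Slc25a48* and *Slc25a42*, a share of 9.76% beside a background of 10.2%. No carrier was 2-fold higher or lower by its brightest probe, where 5.27% of all genes were higher and 4.54% were lower. None passed a Z score of 2, the number of SDs from the mean ratio of all detected probes, in either direction, where 3.46% and 2.76% of all genes did. With 41 genes, these background shares come to few genes, so counts of 0 are not a result about the carriers. The lowest log2 ratio of a carrier was -0.99 and the highest 0.74. The SD of the ratios was 0.38 among carriers and 0.69 among all genes. The median absolute deviation, which is little moved by extreme genes, was 0.30 among carriers and 0.24 among all genes.

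**Figure D2:**
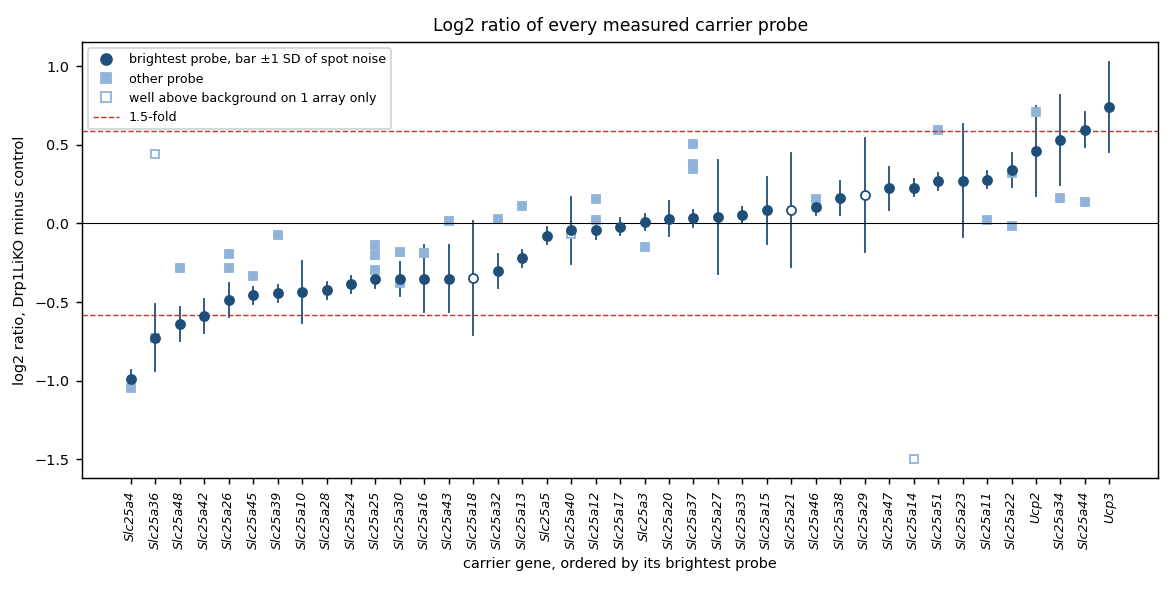
Log2 ratio, *Drp1*LiKO minus control, of every carrier probe well above background on at least 1 array, 1 array per genotype, with genes ordered by their brightest probe (circles, with bars of 1 SD of spot noise) and other probes as squares. Dashed lines mark 1.5-fold, and 4 carriers lie below the lower line and 2 above the upper line, while the open square of *Slc25a14* at -1.49 lies far from the filled circle of that gene.

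Among the carriers of ATP, ADP and phosphate, *Slc25a4* stood apart. *Slc25a4* encodes the ADP/ATP translocase ANT1, the main form of heart and muscle. It was read by 2 probes on chromosome 8 of mm9, on the minus strand. The brighter probe, 47292828 to 47292887, starts at base 913 of NM_007450 and had a signal of 16696 on the control array and 9559 on the *Drp1*LiKO array. The other, 47294441 to 47294500, starts at base 560 and had a signal of 4625 on the control array and 2545 on the *Drp1*LiKO array. Both were lower in *Drp1*LiKO cells, with log2 ratios of -0.99 and -1.04 and a spot noise of 0.054 for each, and the sizes were 1.98-fold and 2.06-fold. The probes do not overlap and are shown, 5′ to 3′, because the largest decrease in the family rests on them. Each has a reading frame without a stop codon over its 60 bases.
Slc25a4, start 913: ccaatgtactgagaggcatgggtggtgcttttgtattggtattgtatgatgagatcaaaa
Slc25a4, start 560: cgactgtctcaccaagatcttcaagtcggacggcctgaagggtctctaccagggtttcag

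*Slc25a5* encodes ANT2, the translocase that most dividing and many other cells express. Its single probe had a signal of 16743 on the control array and 18010 on the *Drp1*LiKO array, a log2 ratio of -0.08. The log2 ratio of *Slc25a4* was thus 0.91 below that of *Slc25a5*, where the spot noise of the difference was 0.076. *Slc25a3*, the phosphate carrier, which brings in the phosphate that ATP synthase uses, had signals of 18524 and 21153, a log2 ratio of 0.01, and by its other probe 17374 and 17801, a log2 ratio of -0.15. Both genes differed little between the arrays. Of the calcium-regulated ATP-Mg/phosphate carriers, *Slc25a24* went from 8909 to 7728, a log2 ratio of -0.39, and *Slc25a25* from 1573 to 1396, a log2 ratio of -0.36. The other 3 probes of *Slc25a25* were lower as well, from -0.30 to -0.14. *Slc25a23*, dim on both arrays at 31.3 and 42.9, had a log2 ratio of 0.27 with a spot noise of 0.36. The median of this class was -0.22 over 6 detected genes.

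The starts of *Slc25a4* and *Slc25a5* are shown side by side because the genes of these translocases had different ratios. The windows run from 250 bases before to 50 bases after the start of the gene in RefSeq on GRCm38.p6, along the strand of the gene, at chr8:46211013-46211312 on the minus strand for *Slc25a4* and chrX:36795347-36795646 on the plus strand for *Slc25a5*. Capitals mark matches, on either strand, to any of the motifs searched. These were the estrogen-related receptor element TCAAGGTCA, the hexamer AGGTCA that nuclear receptors bind and that the former contains, the cAMP response element TGACGTCA, the E-box CACGTG, the GC box GGGCGG, the CCAAT box and TATAAA.
Slc25a4: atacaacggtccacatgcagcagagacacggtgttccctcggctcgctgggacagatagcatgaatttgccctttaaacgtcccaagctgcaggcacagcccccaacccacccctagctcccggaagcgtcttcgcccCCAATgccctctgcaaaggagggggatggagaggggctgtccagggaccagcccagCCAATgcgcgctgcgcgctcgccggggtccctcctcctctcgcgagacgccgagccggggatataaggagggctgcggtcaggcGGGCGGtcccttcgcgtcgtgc
Slc25a5: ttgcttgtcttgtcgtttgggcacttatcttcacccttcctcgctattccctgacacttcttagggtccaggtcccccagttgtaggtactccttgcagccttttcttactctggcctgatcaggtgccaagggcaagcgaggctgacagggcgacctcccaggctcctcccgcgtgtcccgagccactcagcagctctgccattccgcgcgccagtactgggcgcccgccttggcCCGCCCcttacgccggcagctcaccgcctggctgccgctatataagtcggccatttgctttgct

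The window of *Slc25a4* held 2 CCAAT boxes, at positions -112 and -56 counted from the start as 0, and a GC box at position 28. That of *Slc25a5* held a GC box at -14 on the other strand and no CCAAT box. The RefSeq table has windows for 38 of the 48 carriers, 48 windows in all. A GC box was found in 79.2% of the carrier windows and in 35.7% of all 32851 windows, and the median GC content was 59.3% and 52.7%. A CCAAT box was found in 43.8% of the carrier windows and 37.4% of all windows. No carrier window held the estrogen-related receptor element, which 0.42% of all windows hold. These matches describe letters in the sequence and do not show that a factor binds there.

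The uncoupling proteins and their relatives had a median log2 ratio of 0.23 over 5 detected genes, which is the value of *Slc25a14*. Of the 5, 4 were higher in *Drp1*LiKO cells, *Slc25a27* by less than its spot noise, beside 43.6% of all genes on both arrays. With 5 genes, this count is not a result about the class. UCP2 and UCP3 lower the proton gradient or move metabolites in tissues other than brown fat, and their genes are neighbors. The starts lie 20367 bases apart on chromosome 7 of GRCm38.p6. *Ucp3* had a signal of 46.1 on the control array and 87.6 on the *Drp1*LiKO array, a log2 ratio of 0.74 or 1.67-fold, the highest in the family. *Ucp2* had a signal of 42.5 on the control array and 66.3 on the *Drp1*LiKO array, a log2 ratio of 0.46, and by its other probe 29.6 and 54.8, a log2 ratio of 0.71. All 3 probes were higher but dim, with a spot noise of 0.29 for *Ucp3* and of 0.29 and 0.36 for *Ucp2*. With normexp background correction of the raw signals and an offset of 50, which by construction draws the ratios of dim probes toward 0, the log2 ratio of *Ucp3* was 0.32 and that of *Ucp2* 0.14. *Ucp2* is also expressed by macrophages, whose markers were higher on the *Drp1*LiKO array, as given above, and what they contribute to its value was not tested. The single probe of *Ucp3* lies on chromosome 7 of mm9 from 107630399 to 107630458, starts at base 745 of NM_009464, and is shown because the largest increase rests on it.
Ucp3, start 745: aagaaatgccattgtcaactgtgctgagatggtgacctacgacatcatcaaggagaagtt

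The window at the start of *Ucp3*, chr7:100472741-100473040 on the plus strand of GRCm38.p6, is shown because it was the only one of the 4 printed with the hexamer AGGTCA. This hexamer is a half-site of nuclear receptors and not a whole site of a given receptor. It held this hexamer in 2 places, at positions -149 and -44. The hexamer was found in 12.5% of the carrier windows and in 16.3% of all windows, and the other carriers with it were *Slc25a34*, *Slc25a39*, *Slc25a45*, *Slc25a47* and *Ucp1*.
Ucp3: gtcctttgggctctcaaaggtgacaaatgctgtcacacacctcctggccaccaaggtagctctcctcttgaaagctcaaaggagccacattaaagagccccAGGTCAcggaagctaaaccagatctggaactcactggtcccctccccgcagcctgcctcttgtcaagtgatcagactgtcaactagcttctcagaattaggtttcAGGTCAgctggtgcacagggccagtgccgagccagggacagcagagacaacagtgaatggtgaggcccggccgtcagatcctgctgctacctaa

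*Slc25a14*, also called UCP5 or BMCP1, had a signal of 1569 on the control array and 2086 on the *Drp1*LiKO array. Its log2 ratio was 0.23, and -0.02 in the normalized values that the authors deposited. Its other probe, near the start of the transcript at base 266, was well above background in control cells at 37.2 and not in *Drp1*LiKO cells at 6.97, at least 2.82-fold lower. The probes of this gene thus disagreed in direction, and the dim one was the only carrier probe past a Z score of 2, at -2.28. *Slc25a30*, the kidney mitochondrial carrier KMCP1, was lower by all 3 measured probes. Its signal was 741.5 on the control array and 658.0 on the *Drp1*LiKO array, a log2 ratio of -0.36, and the other probes had ratios of -0.38 and -0.18. *Slc25a27*, or UCP4, a carrier of neurons, was dim at 46.8 and 54.6, a log2 ratio of 0.04. This was smaller than its spot noise of 0.36 and was -0.11 with normexp, so no direction can be given.

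Carriers of dicarboxylates, aspartate and glutamate had a median log2 ratio of -0.04 over 7 detected genes. The malate-aspartate shuttle, which carries reducing equivalents into the matrix, uses the oxoglutarate/malate carrier *Slc25a11* and the aspartate/glutamate carriers *Slc25a12* (aralar) and *Slc25a13* (citrin, the form of liver). *Slc25a11* had a signal of 4841 on the control array and 6660 on the *Drp1*LiKO array, a log2 ratio of 0.28, though its other probe was at 0.02. *Slc25a13* had a signal of 3300 on the control array and 3214 on the *Drp1*LiKO array, a log2 ratio of -0.22. Its other probe, dim at 81.0 and 99.3, went the other way, at 0.11. *Slc25a12* had signals of 1944 and 2142, a log2 ratio of -0.04, and its other measured probes were at 0.02 and 0.15. No measured probe of these 3 genes was past 1.5-fold. *Slc25a22*, a glutamate carrier, was higher by its brightest probe, from 393.9 to 566.6, a log2 ratio of 0.34, and its other probes were at 0.32 and -0.01. *Slc25a10*, the dicarboxylate carrier that exchanges malate or succinate for phosphate, was lower, from 270.8 to 227.4, a log2 ratio of -0.43 with a spot noise of 0.20. *Slc25a18*, another glutamate carrier, and *Slc25a21*, the oxodicarboxylate carrier, were not well above background in control cells. The log2 ratio of *Slc25a21*, 0.08, was smaller than its spot noise of 0.36 and was -0.09 with normexp, so no direction can be given. No fold can be given for *Slc25a18*.

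Of the carriers of other amino acids, 3 were measured on both arrays, and of these *Slc25a44* and *Slc25a38* were higher in *Drp1*LiKO cells. *Slc25a29*, a carrier of basic amino acids, was not well above background in control cells. Its log2 ratio of 0.18 was smaller than its spot noise of 0.36 and was -0.08 with normexp, so no direction can be given. *Slc25a44* imports branched-chain amino acids. Its brighter probe had a signal of 302.3 on the control array and 519.1 on the *Drp1*LiKO array, a log2 ratio of 0.60 or 1.51-fold. Its other probe had 240.7 and 300.5, a log2 ratio of 0.14, so only 1 of the 2 probes was past 1.5-fold. *Slc25a38*, which brings in the glycine used for heme, had signals of 600.0 and 761.8, a log2 ratio of 0.16. *Slc25a15*, the ornithine carrier of the urea cycle, had signals of 68.0 and 81.7, a log2 ratio of 0.08. The last was smaller than its spot noise of 0.21. It was -0.01 with normexp and -0.03 in the normalized values that the authors deposited, so no direction can be given for *Slc25a15*.

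Carriers of carnitine, cofactors and nucleotides leaned the other way, with a median log2 ratio of -0.30 over 11 genes, 3 higher and 8 lower, and a median of -0.12 in the table of normalized values that the authors deposited. *Slc25a36* imports pyrimidine nucleotides into the matrix. Its brightest probe had a signal of 134.9 on the control array and 92.5 on the *Drp1*LiKO array, and the next 72.1 and 49.3. Both had a log2 ratio of -0.73, with a spot noise of 0.21 and 0.31. A probe in a predicted transcript of this gene went the other way, from 21.8, not well above background, to 33.5. Its log2 ratio was 0.44 with a spot noise of 0.36. *Slc25a33*, the related pyrimidine carrier, had signals of 6047 and 7125, a log2 ratio of 0.05. The difference between the pair was 0.78, with a spot noise of 0.22. The window at the start of *Slc25a36*, chr9:97110992-97111291 on the minus strand of GRCm38.p6, is shown for the cAMP response element at position -161, which among carriers with a window was found in *Slc25a25* and *Slc25a36*, and in 1.79% of all windows. It also held an E-box at -187, a CCAAT box at -142 and a GC box at -14.
Slc25a36: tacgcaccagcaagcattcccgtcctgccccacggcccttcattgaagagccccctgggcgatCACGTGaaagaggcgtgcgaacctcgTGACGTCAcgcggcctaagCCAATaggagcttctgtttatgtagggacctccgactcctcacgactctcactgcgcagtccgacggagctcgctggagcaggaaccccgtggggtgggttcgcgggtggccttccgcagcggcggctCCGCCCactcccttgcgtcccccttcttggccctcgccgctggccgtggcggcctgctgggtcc

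*Slc25a42* imports coenzyme A. It had a signal of 348.1 on the control array and 262.3 on the *Drp1*LiKO array, a log2 ratio of -0.59 or 1.51-fold lower, just past the limit. *Slc25a16*, also linked to coenzyme A, had signals of 218.6 and 194.3, a log2 ratio of -0.35, and was lower by its other probe, at -0.19. *Slc25a26* imports S-adenosylmethionine, the methyl donor. It was lower by all 3 probes, from 429.9 to 348.2 by the brightest, with log2 ratios of -0.49, -0.28 and -0.20. *Slc25a39*, which carries glutathione, was lower by its brightest probe, from 33441 to 27900, a log2 ratio of -0.44, but at -0.07 by its other probe. Its relative *Slc25a40* was at -0.04. *Slc25a32*, a carrier of folate and FAD, had a log2 ratio of -0.30 and another probe at 0.03. *Slc25a17*, a carrier of cofactors in peroxisomes, was at -0.02.

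In the same class, *Slc25a51*, which imports NAD+, was higher by both of its probes. Its brighter probe had a signal of 3490 on the control array and 4770 on the *Drp1*LiKO array, a log2 ratio of 0.27, and the other probe was at 0.59. *Slc25a20* encodes the carnitine/acylcarnitine carrier, through which acyl groups enter for beta oxidation. It had a signal of 284.5 on the control array and 329.9 on the *Drp1*LiKO array on the arrays, a log2 ratio of 0.03. In the deposited table of normalized values, its values were 305.3 and 76.0, a log2 ratio of -2.01. The control column of that table ranks probes as the control array does, with a rank correlation of 1.00 over 26443 probes, but in the *Drp1*LiKO column 475 of these probes lay over 2-fold from the *Drp1*LiKO array. The arrays and this table thus give different accounts of *Slc25a20*, and nothing here settles which is right.

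The iron carriers, mitoferrin 1 (*Slc25a37*) and mitoferrin 2 (*Slc25a28*), bring iron to heme and iron-sulfur cluster synthesis. *Slc25a28* had a signal of 2092 on the control array and 1768 on the *Drp1*LiKO array, a log2 ratio of -0.43. *Slc25a37* had 9211 and 10687 by its brightest probe, near the end of the transcript, a log2 ratio of 0.03. The 3 other probes of *Slc25a37* were higher, at 0.51, 0.38 and 0.34. Of these, 2 lie in NM_026331, starting at base 304 with signals of 971.0 and 1566, and at base 815 with signals of 190.5 and 274.3. They are shown because they gave ratios above that of the brightest probe, and their places on the minus strand of chromosome 14 of mm9 are 69902797 to 69902856 and 69863195 to 69863254.
Slc25a37, start 304: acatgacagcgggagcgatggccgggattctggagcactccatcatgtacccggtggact
Slc25a37, start 815: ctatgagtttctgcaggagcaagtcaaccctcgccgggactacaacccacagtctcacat

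The last of the probes named *Slc25a37*, designed on AK034948, lies 177810 bases from the nearest other probe of the gene, so whether it reads the same gene is not certain. Erythroid markers, which could accompany mitoferrin 1, had a median log2 ratio of -0.22 over 6 detected of 10. Of the 6, 4 were detected on both arrays, and 2 were higher and 4 lower. What erythroid cells contribute to the values of *Slc25a37* was not tested.

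The remaining carriers transport other or unsettled substrates and had a median log2 ratio of -0.12 over 6 detected genes of 9. *Slc25a48*, linked to choline transport, had a signal of 789.4 on the control array and 575.2 on the *Drp1*LiKO array, a log2 ratio of -0.64 or 1.56-fold lower, and by its other probe 133.5 and 124.5, a log2 ratio of -0.28. *Slc25a45* was lower by both probes, at -0.46 and -0.33. *Slc25a43* was at -0.35 and 0.01. *Slc25a34* was dim and higher, from 44.8 to 73.3, a log2 ratio of 0.53 with a spot noise of 0.29, and its other probe was at 0.16. *Slc25a47*, a carrier found mostly in liver, had signals of 215.6 and 285.6, a log2 ratio of 0.22. *Slc25a46* encodes an outer membrane protein that takes part in mitochondrial fusion and fission, the process DRP1 serves. Its signal was 4764 on the control array and 5817 on the *Drp1*LiKO array, with log2 ratios of 0.11 and 0.16 by its 2 probes.

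**Figure D3:**
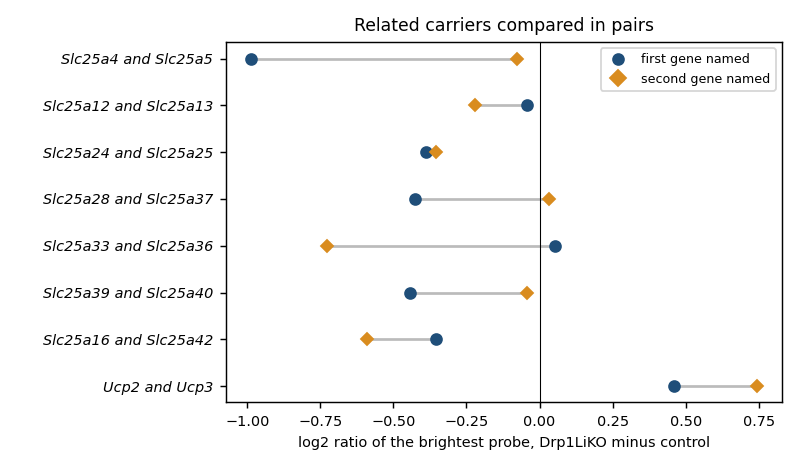
Log2 ratio, *Drp1*LiKO minus control, of the brightest probe for 8 pairs of related carriers, 1 array per genotype, with the first gene of each pair as a circle and the second as a diamond. The pair *Slc25a4* and *Slc25a5* lies 0.91 apart and *Slc25a33* and *Slc25a36* 0.78 apart, whereas *Slc25a24* and *Slc25a25* lie 0.03 apart.

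Some carriers of like function had different ratios and others did not. Of the 8 pairs plotted, *Slc25a4* with *Slc25a5* and *Slc25a33* with *Slc25a36* differed most, followed by the mitoferrins at 0.46 with a spot noise of 0.076. *Slc25a39* and *Slc25a40* differed by 0.40 with a spot noise of 0.22. The other probe of *Slc25a39*, at -0.07, lay close to *Slc25a40* at -0.04, so this difference rests on 1 probe. *Slc25a12* and *Slc25a13* differed by 0.18 with a spot noise of 0.076, but each had probes on both sides of 0. *Slc25a24* and *Slc25a25*, at 0.03 with a spot noise of 0.076, could not be told apart. *Slc25a16* and *Slc25a42*, at 0.24, and *Ucp2* and *Ucp3*, at 0.28, differed by no more than their spot noise of 0.24 and 0.40. Probes of 1 gene also differed. Of 22 carriers with at least 2 probes measured on both arrays, 16 had all these probes on 1 side of 0, a share of 72.7%, beside 63.2% of 6055 genes of the whole array. The 6 with probes on both sides were *Slc25a3*, *Slc25a12*, *Slc25a13*, *Slc25a22*, *Slc25a32* and *Slc25a43*. The pooled SD between probes of a carrier was 0.18 on the log2 scale, larger than the spot noise of a bright probe. It was about as large as the difference between *Slc25a12* and *Slc25a13*. Spot noise does not include this spread, so it understates the error of a difference between genes.

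Genes that work beside the carriers are given for comparison. Of all 20165 genes detected, 10.3% were at least 1.5-fold higher and 10.2% at least 1.5-fold lower. In lists this short, these shares come to few genes. Of 22 genes for mitochondrial transport outside the family, among them the pyruvate carrier *Mpc1* and *Mpc2*, the porins *Vdac1*, *Vdac2* and *Vdac3*, and the calcium uniporter *Mcu*, none was past 1.5-fold in either direction, and the median log2 ratio was -0.12. The highest were *Mpc1*, from 8400 to 12596, at 0.40, and *Vdac2*, from 27246 to 36331, at 0.23, and the lowest were the serine carrier relative *Sfxn3*, from 2029 to 1564, at -0.56, and *Abcb10*, a transporter of the inner membrane, from 834.4 to 649.6, at -0.54. The 16 enzymes that use what carriers deliver had a median of 0.01 and more extreme members. Those past 1.5-fold were *Arg1*, which splits arginine in the urea cycle, from 99.8 to 351.2, at 1.63, *Cps1*, which starts the urea cycle, from 65.4 to 116.2, at 0.65, *Glud1*, glutamate dehydrogenase, from 49071 to 26339, at -1.08, and *Cpt1a*, which makes acylcarnitines, from 1732 to 1242, at -0.66. *Slc25a15* and *Slc25a20*, which act beside *Arg1*, *Cps1* and *Cpt1a*, were at 0.08 and 0.03 on the same arrays. Of 12 regulators of mitochondrial genes, 4 were past 1.5-fold higher and none lower, beside 10.3% and 10.2% of all genes. Their median was 0.16. Those past 1.5-fold were *Ppargc1a*, the coactivator PGC-1α, from 133.2 to 488.8, at 1.69, its relative *Ppargc1b* at 0.64, *Ppard* at 0.73 and *Pparg* at 0.69. The lowest were *Myc* at -0.42 and *Tfam*, the factor for mitochondrial DNA, at -0.38. Macrophages and other cells express several of these genes too, and the share of such cells in the values was not tested.

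**Figure D4:**
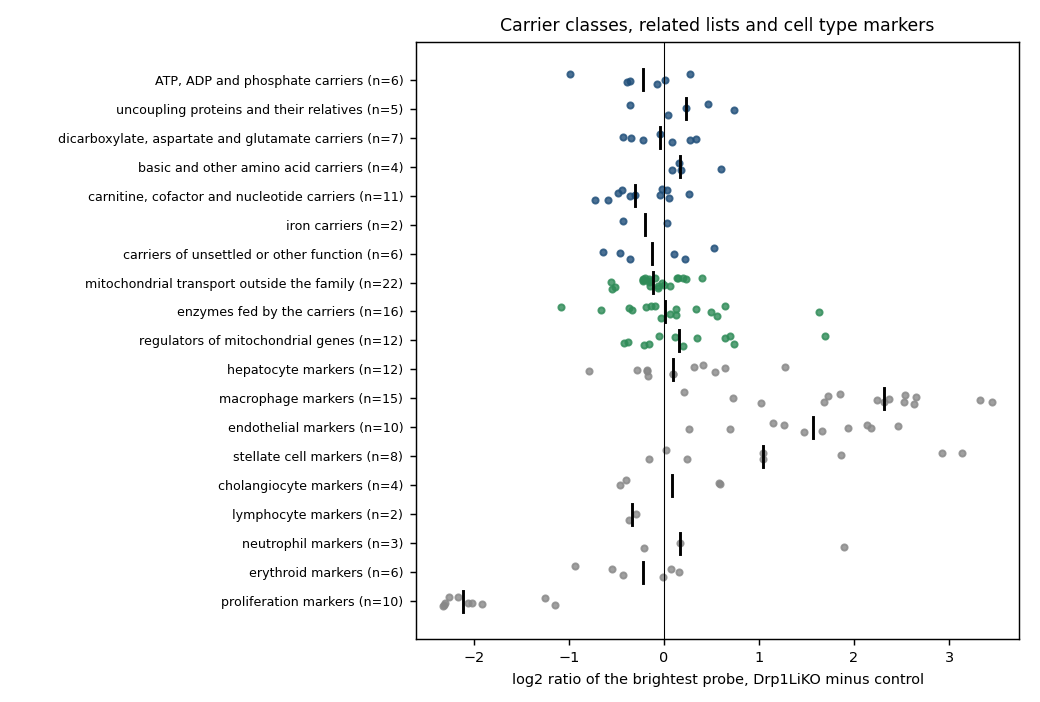
Log2 ratio, *Drp1*LiKO minus control, of the brightest probe of each detected gene in the classes of carriers (blue), related lists (green) and cell type and proliferation markers (gray), 1 array per genotype, with the median as a bar and the number of detected genes in parentheses. Carrier classes have medians from -0.30 to 0.23, whereas macrophage markers center at 2.32 and proliferation markers at -2.12.

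Of 11 endothelial markers, 10 were detected, 7 of them on both arrays, and *Vwf* was not well above background. The 7 on both arrays were all higher as well, and the median log2 ratio over the 10 was 1.57. *Lyve1*, *Tek* and *Tie1* were detected on the *Drp1*LiKO array only, so their direction was largely set by that filter, and the median includes them. *Tek* was at only 0.27. Of 10 stellate cell markers, 8 were detected, 4 of them on both arrays, with a median of 1.04. The 4 on both arrays were all higher, *Acta2* by only 0.02, and the median includes the others. *Rgs5*, *Pdgfrb* and *Col3a1* were likewise detected on the *Drp1*LiKO array only, *Rgs5* at a log2 ratio of 0.24. For *Rgs5* and *Tek* the ratio was below the spot noise of 0.36 of the dimmest probes, so no direction can be given. No direction can be given for *Des*, not well above background in control cells, and *Lrat* and *Ngfr* were not well above background on either array. Cholangiocyte markers were at 0.09 over 4 of 6, neutrophil markers at 0.17 over 3 of 7, with *Ly6g* at least 3.72-fold higher, *Csf3r* at 0.17 and *Elane* at -0.21, and lymphocyte markers were detected for 2 of 10 genes. The medians for macrophages, endothelial cells, stellate cells and proliferation were further from 0 than that of any class of carriers. Except for proliferation, these medians include markers detected on the *Drp1*LiKO array only.

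The processing moved some of the carriers more than others. *Slc25a4* lay between -1.07 and -0.94 under the 10 alternatives that recompute a ratio and was past 1.5-fold in all 10. *Slc25a36* and *Ucp3* were past 1.5-fold in 9 of 10, *Slc25a44* and *Slc25a48* in 8 and *Slc25a42* in 6, all with the same sign throughout. For these carriers, the filter and floor settings left the ratio as it was, and keeping outlier spots nearly so. Such settings repeat the reported value, so the counts overstate how far it was tested. *Slc25a42* was not past 1.5-fold with spike-in scaling, at -0.55. With normexp and its offset of 50, *Slc25a4* was the only carrier past 1.5-fold, and the shares of all genes past 1.5-fold were smaller too, at 5.67% higher and 5.65% lower. In the deposited table, *Slc25a26* at -0.80, *Slc25a28* at -0.62, *Slc25a20* at -2.01 and *Ucp2* at 0.61 were past 1.5-fold as well, and *Slc25a42* at -0.44 was not.

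**Figure D5:**
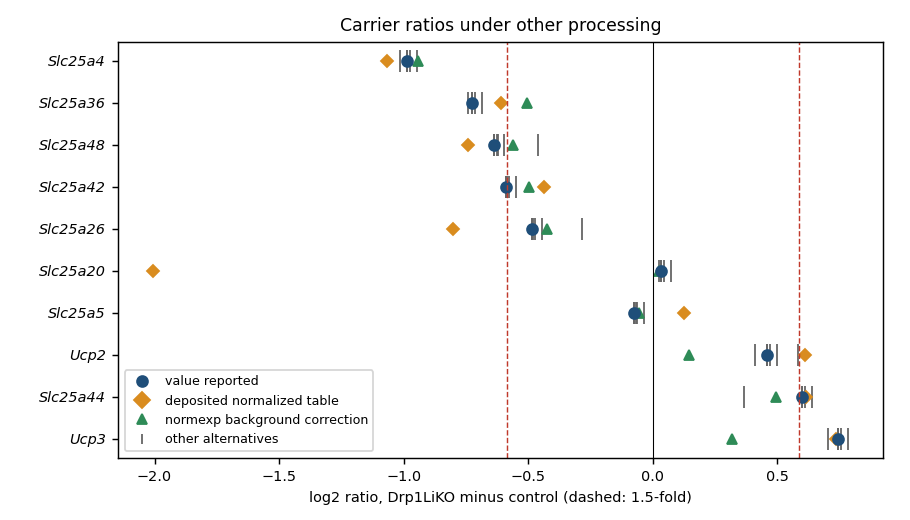
Log2 ratio, *Drp1*LiKO minus control, of 10 carriers as reported (circles), in the deposited normalized table (diamonds), after normexp background correction (triangles) and under the other alternatives (ticks), with dashed lines at 1.5-fold, 1 array per genotype. The values of *Slc25a4* lie together from -1.07 to -0.94, whereas *Slc25a20* lies near 0 except in the deposited table, at -2.01.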

How the data were processed

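RNA of control and *Drp1*LiKO primary hepatocytes was labeled with Cy3 and hybridized to 1 Agilent array per genotype. The authors deposited the scanner output, in which the intensity of each spot is given raw and corrected for background, and a table of normalized intensities by a method not stated in the sources used here. Feature Extraction is version 9.5.1.1 per the labels and 10.7.1.1 per the file headers. Spots marked as outliers (71 for control and 63 for *Drp1*LiKO) were dropped. Processed signals were put on the log2 scale and centered on the 75th percentile of each array, and signals not well above background that lay below the dimmest detected signal of their array (18.2 for control and 15.0 for *Drp1*LiKO) were raised to it. A detected gene had a brightest probe well above background on 1 array or more. Every carrier found by name was reported, apart from 2 that are not reported here, and of the related lists the 2 largest ratios in each direction measured on both arrays. Other genes were named after their values were seen, and the members, lists and pairs were chosen with earlier results of these data known. All 48 names stand in the RefSeq table. Probe coordinates are in mm9 and promoter windows in GRCm38.p6. The steps were tested on simulated data made from the control array with technical noise only. The 11 alternatives were other scalings, background correction, filters, floor, outlier handling, choice of probe, a robust Z score and the deposited table. Software was R 4.3.3 (limma 3.58.1) and Python 3.11.15 (pandas 2.3.3, numpy 2.4.6, matplotlib 3.10.9).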

Additional observations from a re-analysis of the deposited data

How the results depend on the processing

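The number of carriers at least 1.5-fold higher was 2, and 0 with normexp background correction with an offset of 50, which draws the ratios of dim probes toward 0, and 1 with the median of the probes of a gene. The number at least 1.5-fold lower was 4, and 1 with normexp, where the shares of all genes were 5.67% higher and 5.65% lower. At 2-fold lower it was 0, and 2 in the deposited table (*Slc25a4* and *Slc25a20*) and 1 with the median of probes (*Slc25a4*). Past a Z score of 2 it was 0 in either direction, and with the robust score 1 higher and 1 lower, with normexp 1 lower and in the deposited values 1 lower. The shares of all genes past 2-fold or past a Z score of 2 were not computed under these other settings. These counts are therefore not a result about the carriers. The median of the uncoupling proteins and their relatives, 0.23, was 0.040 with the median of probes, where the dim probe of *Slc25a14* enters. The median of the carriers of unsettled or other function, -0.12, was -0.46 with no filter on dim probes, a setting that moved the median of all genes from -0.05 to -0.47. The median of the carnitine, cofactor and nucleotide carriers, -0.30, was -0.12 in the deposited values and -0.14 with the median of probes. Of 404 values of single carriers under alternatives, 375 moved by less than the SD of 0.18 between probes of a carrier, and 14 of the 29 that moved more came from the deposited table. The 375 include values from the filter and floor settings, which leave most carrier ratios as they are. The causes were not tested. No paired analysis was possible because there was 1 array per genotype, and for the same reason no array could be dropped. Dim probes, such as those of *Ucp2*, *Ucp3*, *Slc25a34* and *Slc25a23*, have the largest spot noise, which limits their ratios most.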
